A study of Mus musculus with 24 samples.

Results

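Aminoacyl-tRNA synthetases are the enzymes that attach each amino acid to its tRNA, and their mRNAs were followed here across 24 RNA-seq libraries of mouse CGR8 embryonic stem cells (ESCs). Members were picked by a pattern of gene symbols, the amino acid's letter followed by ars (or Eprs), with or without a subunit letter or number. It took 37 of the 54242 listed symbols and left out synthetase-like genes with other symbols, such as Tarsl2. The 37 are 20 cytosolic genes (symbol not ending in 2, with both subunits of the phenylalanine enzyme, Farsa and Farsb) and 17 mitochondrial genes (symbol ending in 2). The tested genes were the 16447 whose log2(TPM + 1) averaged 0.5 or more, and each of the 37 was among them. TPM, the transcript measure scaled to the same sum in every library, is a length-corrected share of a library's transcripts.

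CGR8 is an established mouse ESC line. Cells were transfected with a non-targeting siRNA pool (si-CTL) or with a pool against Rsl24d1 (si-Rsl24d1), a factor of large ribosomal subunit assembly, and each of these was combined with the absence or presence of rescue, that is, ectopic RSL24D1 induced by doxycycline. They were collected in serum and LIF (day 0) or after 4 days of 10 nM retinoic acid (RA, day 4), which gives 8 groups of 3 libraries that the labels call independent triplicates. Each day 0 group is thus ESCs in serum and LIF: si-CTL without rescue, si-Rsl24d1 without rescue, si-CTL with rescue and si-Rsl24d1 with rescue, and the 4 day 4 groups repeat them in RA. The study's methods leave LIF out of the RA medium, a point on which the labels differ. Where LIF was left out, RA and the loss of LIF cannot be told apart in a comparison of the days. The labels give the cells without doxycycline an empty vector and the rescue cells an RSL24D1 vector plus doxycycline, whereas the study's methods describe one inducible line, so the vector, the drug and RSL24D1 cannot be told apart in a comparison of rescue with no rescue.

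The labels could be checked on the target. Rsl24d1 lay between 7.10 and 7.22 log2(TPM + 1) in si-CTL cells at day 0 and between 5.07 and 5.28 in si-Rsl24d1 cells, between 6.60 and 6.94 in rescued si-Rsl24d1 cells, and between 7.21 and 7.31 in si-CTL cells with rescue. At day 4 without rescue the libraries labelled si-Rsl24d1 (6.50 to 6.65) overlapped those labelled si-CTL (6.60 to 6.67), so a difference between siRNAs at day 4 was not accompanied by a lower target mRNA. Of the defining pluripotency markers, Pou5f1 lay between 9.80 and 10.1 at day 0 and between 8.82 and 9.10 at day 4. Sox2 was lower at day 4 too (7.91 to 8.20, then 7.38 to 7.62). Nanog went the other way (7.08 to 7.56, then 8.17 to 8.49), and the ranges of Zfp42, Esrrb and Klf4 overlapped between the days. None of the 6 pluripotency genes was near 0 on either day. The day 4 libraries thus kept stem cell transcripts while the RA gene Stra8 went from 1.25 to 2.25 to 3.74 to 4.47. The TPM of other cell types' markers, summed over each list and put on the log2(TPM + 1) scale, moved with the day too: for 4 fibroblast genes from between 4.41 and 5.54 at day 0 to between 6.27 and 7.55 at day 4, for 4 primitive endoderm genes from between 0.987 and 1.55 to between 2.06 and 3.51, and for 4 neural genes from between 6.10 and 6.41 down to between 4.86 and 5.31. Single genes went against the sum of their list. Thy1 of the fibroblast list fell (2.43 to 2.96, then 1.15 to 1.81), and Sox1 of the neural list rose (0.727 to 1.24, then 1.29 to 1.69). The neural sum is mostly Tubb3 (5.83 to 6.08, then 3.79 to 4.75). Pax6 of that list overlapped between the days (2.25 to 3.36, then 2.98 to 3.68), so the list did not fall as a whole. No marker of these lists was at 0 in any library, and the part of these markers in the day comparisons was not tested. In such bulk libraries fewer cells of a type and less RNA per cell cannot be told apart.

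A cell keeps 2 sets of these enzymes. The cytosolic set charges the tRNAs that cytosolic ribosomes read, and several of its members, with 3 scaffold proteins, sit in a multisynthetase complex. The mitochondrial set is encoded in the nucleus, imported, and charges the tRNAs of the mitochondrial genome, and for some amino acids (glycine, lysine) one gene makes both enzymes, as Gars and Kars do. Many cytosolic synthetase genes are known targets of ATF4, a transcription factor that is made when amino acids run short and that binds, with a C/EBP partner, to a composite DNA element.

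The letters of that element, TGATGNAA or its reverse complement TTNCATCA, were searched on both strands in the RefSeq promoter windows (GRCm38.p6, 250 bases before to 50 bases after the start site that the table uses). Windows were found for 27 of the 37 members. The motif was held by 5 of 13 cytosolic members (Aars, Gars, Iars, Tars and Yars) and by 0 of 14 mitochondrial members, against 4.51% of all 27025 genes with a window. The sites are shown because these 5 genes are among those lower in si-Rsl24d1 cells at day 0, described below. One site of each gene is given, the one nearest its start site. They are written 5′ to 3′ on the gene's strand, with the motif in capitals and 11 bases on either side:
Aars, chr8:111033840-111033869, plus strand, motif starting at base 10 after the start site: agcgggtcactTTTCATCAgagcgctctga
Gars, chr6:55037960-55037989, plus strand, motif starting 30 bases before it: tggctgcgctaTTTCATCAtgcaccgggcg
Iars, chr13:49682126-49682155, plus strand, motif starting at base 8 after it: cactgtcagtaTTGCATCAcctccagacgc
Tars, chr15:11399655-11399684, minus strand, motif starting 15 bases before it: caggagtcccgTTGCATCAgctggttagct
Yars, chr4:129189895-129189924, plus strand, motif starting at base 4 after it: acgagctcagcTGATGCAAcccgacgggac

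A match of letters is a description of the window and does not show that a factor binds there. Among the cytosolic members that were lower in si-Rsl24d1 cells at day 0, 10 had a window and 5 of these held the motif. Sars and Mars1, whose falls described below were among the largest, had a window without the motif. Cars, Hars, Hars2, Lars, Nars, Pars2, Rars, Vars and Wars were among those with no entry in the promoter table.

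In si-CTL cells at day 0 the cytosolic genes were expressed well above the mitochondrial ones. The cytosolic members ranged from 55.7 TPM (Wars, tryptophan) to 359 TPM (Kars, lysine) with a median of 128 TPM, and the mitochondrial members ranged from 3.84 TPM (Wars2) to 206 TPM (Lars2) with a median of 24.3 TPM. Kars was followed by Nars (asparagine, 232 TPM) and Sars (serine, 217 TPM). On the log2(TPM + 1) scale Kars (8.49 ± 0.050, SD, n = 3) stood above Nars (7.86 ± 0.067), and Nars and Sars (7.77 ± 0.048) differed by little more than their spread. Aars (7.51 ± 0.092) and Gars (7.49 ± 0.068) did not differ beyond it. At the other end Mars2 (4.44 TPM) and Wars2 were the least abundant.

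**Figure D1:**
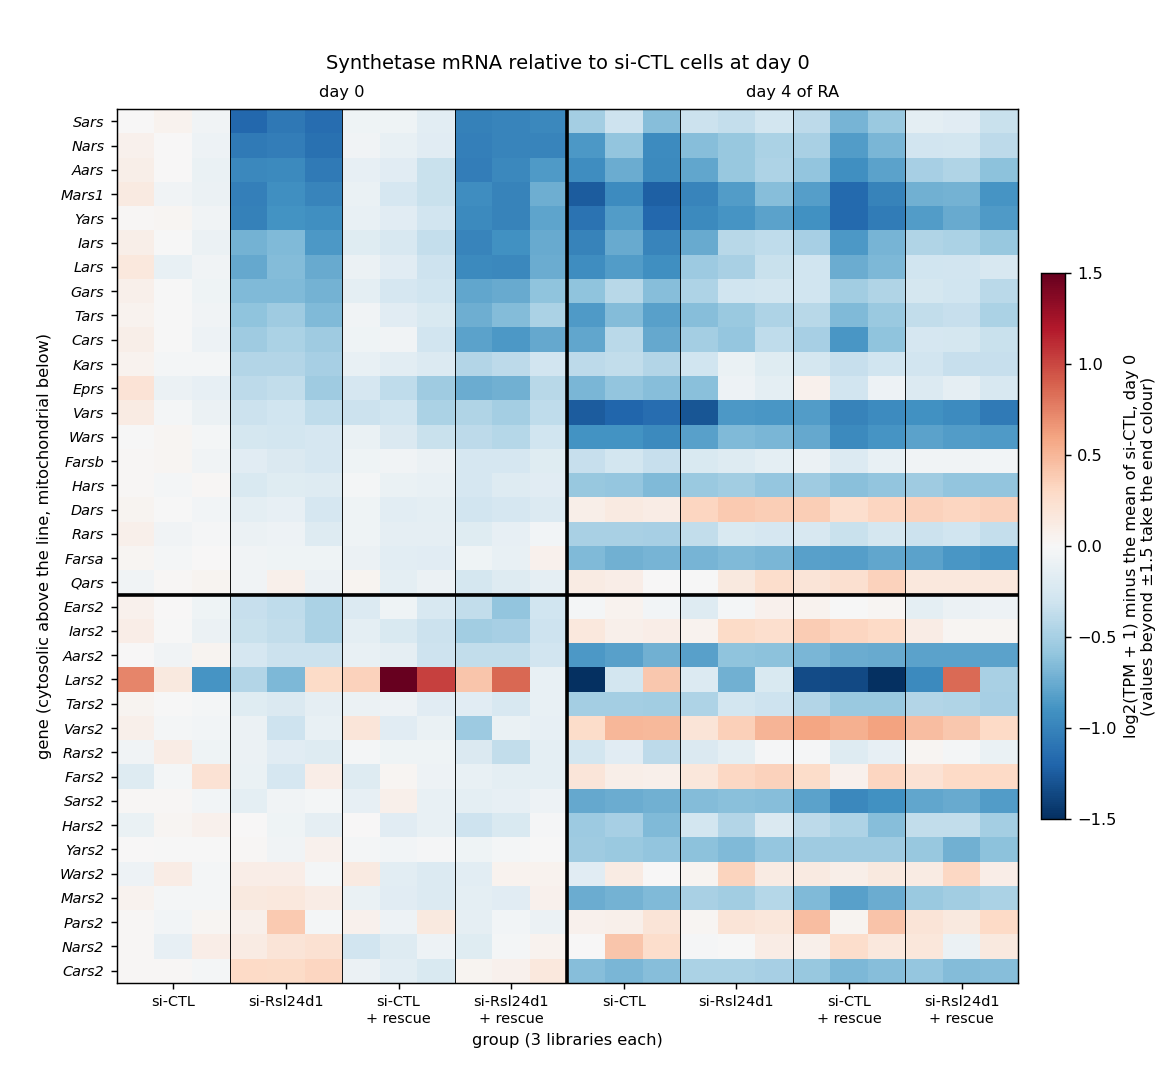
Difference of each library from the mean of the 3 si-CTL libraries at day 0, in log2(TPM + 1) units (colour), for 36 of the synthetase genes (rows, cytosolic above and mitochondrial below the thick line, each ordered by the change with si-Rsl24d1 at day 0) in 24 libraries (columns, 8 groups of 3). The upper rows are blue in both si-Rsl24d1 groups at day 0 and, to differing degrees, in every group of day 4. Lars2 varies between libraries of the same group.

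The first question was whether lower Rsl24d1 changed the synthetase mRNAs of self-renewing ESCs. In si-Rsl24d1 cells at day 0 without rescue, 16 of 20 cytosolic members were lower than in si-CTL cells and 0 were higher (limma, Benjamini-Hochberg adjusted p below 0.01), whereas 16.1% of all genes tested were called lower. Their median log2 fold change was -0.49, against -0.01 over all genes. Of the 16, 5 also passed 1.8-fold, which 0.772% of all genes did in that direction: Sars, Nars, Aars, Mars1 and Yars.

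Sars, which charges serine tRNA (chr3:108424864-108445259), changed most. Its level was 7.77, 7.82 and 7.72 log2(TPM + 1) in the 3 si-CTL libraries and 6.60, 6.70 and 6.62 in the 3 si-Rsl24d1 libraries. The groups did not overlap, and the log2 fold change was -1.13 ± 0.073 (SE, adjusted p = 2.04e-10), a level 0.457 times that of si-CTL cells. Nars, the asparagine enzyme, had 7.92, 7.87 and 7.79 in si-CTL cells against 6.80, 6.82 and 6.74 (log2 fold change -1.08 ± 0.079, adjusted p = 1.28e-09). It stood apart between the groups in the same way.

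Aars, the alanine enzyme (chr8:111027778-111055569), whose promoter site is shown above, went from 7.59, 7.51 and 7.41 to 6.54, 6.55 and 6.45 (log2 fold change -0.99 ± 0.088). Mars1, the methionine enzyme of the multisynthetase complex (chr10:127296221-127311786), went from 6.95, 6.76 and 6.73 to 5.80, 5.90 and 5.82 (-0.98 ± 0.10). Yars, the tyrosine enzyme (chr4:129189734-129219240), had 6.43, 6.45 and 6.37 in si-CTL cells and 5.41, 5.52 and 5.50 in si-Rsl24d1 cells (-0.94 ± 0.078). In none of these 3 genes did a si-Rsl24d1 library reach the lowest si-CTL library.

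Aars and Iars are the less certain values of the set, because 13.8% of the 31-base words of Aars transcripts also occur in Exosc6 and 14.5% of those of Iars in Gm4849. Smaller falls were called for Iars (isoleucine, -0.75), Lars (leucine, -0.72), Gars (glycine, -0.68), Tars (threonine, -0.60), Cars (cysteine, -0.51) and Kars (lysine, -0.46), and still smaller ones for Vars (valine, -0.34), Wars (tryptophan, -0.26), Farsb (phenylalanine, -0.21), Hars (histidine, -0.20) and Dars (aspartate, -0.18). The call of Vars was lost without si-CTL replicate 1 (adjusted p = 0.026) and without si-Rsl24d1 replicate 1 or 3. That of Dars was lost without si-Rsl24d1 replicate 3 (adjusted p = 0.011) and when only the groups compared were fitted (0.022). The 4 cytosolic members that did not pass were Eprs, the fused enzyme for glutamate and proline (-0.43, 95% interval -0.69 to -0.16, adjusted p = 0.0104), Rars, for arginine (-0.12, -0.21 to -0.03), Farsa (-0.06, -0.14 to 0.02) and Qars, for glutamine (-0.02, -0.15 to 0.11). Eprs passed as lower with a filter at a mean of 1.5 (adjusted p = 0.0085), with protein-coding genes rescaled to a common sum (0.0054) and with median of ratios scaling (8.19e-04), and Rars passed with the last of these (6.63e-04). Qars had 7.18, 7.24 and 7.27 log2(TPM + 1) in si-CTL cells and 7.18, 7.30 and 7.14 in si-Rsl24d1 cells, and was the 1 cytosolic member whose libraries overlapped between the groups. The other 19 lay wholly below, as did 27.3% of all genes tested.

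The 2 subunits of the phenylalanine enzyme thus gave different calls, but the difference between them was not tested. Within the cytosolic set, the members of the multisynthetase complex were called lower in 5 of 8 cases and those outside it in 11 of 12, with median log2 fold changes of -0.44 and -0.56. By catalytic fold, 7 of 9 class I and 9 of 10 class II members were called lower (Eprs, which has both folds, was left out), with medians of -0.51 and -0.53. Neither split was tested.

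**Figure D2:**
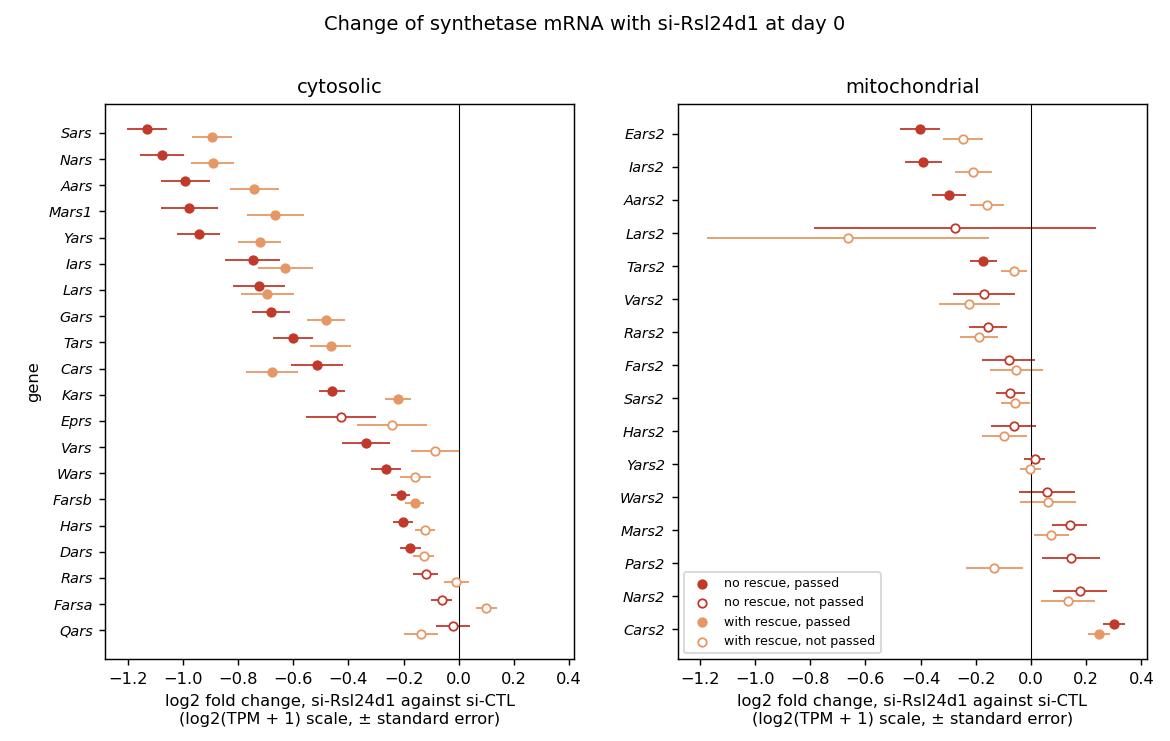
Log2 fold change of si-Rsl24d1 against si-CTL cells at day 0 (horizontal axis, log2(TPM + 1) scale, points with standard errors) for the 20 cytosolic (left) and 16 of the mitochondrial genes (right), without rescue (red) and with rescue (orange). Filled points passed an adjusted p below 0.01, 16 of 20 cytosolic genes without and 12 with rescue.

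The mitochondrial set moved less. Of its 17 members 5 were lower (among them Ears2, Iars2, Aars2 and Tars2) and 1 was higher (Cars2), with a median log2 fold change of -0.08 and 14.3% of all genes called higher. Ears2 (glutamate) changed by -0.40, Iars2 (isoleucine) by -0.39 and Aars2 (alanine) by -0.30. Tars2 (threonine, -0.17) passed in the fit of all 24 libraries (adjusted p = 0.0072) but not with the replicate number as a block (0.012). Its call was also lost with no filter (0.0116) and when only the groups compared were fitted (0.0136). The same held without either siRNA's replicate 1 or 2, or without si-CTL replicate 3. None of the mitochondrial members passed 1.8-fold.

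Cars2, the mitochondrial cysteine enzyme (chr8:11514017-11550781), went the other way. It had 5.30, 5.29 and 5.25 log2(TPM + 1) in si-CTL cells and 5.58, 5.56 and 5.60 in si-Rsl24d1 cells (0.30 ± 0.040, adjusted p = 4.98e-06), all above. Its cytosolic counterpart Cars had 6.37, 6.27 and 6.21 against 5.76, 5.81 and 5.75, all below. Sars2, the counterpart of the gene that fell most, had 4.84, 4.84 and 4.78 against 4.67, 4.77 and 4.79, and these overlapped (-0.08, 95% interval -0.19 to 0.03).

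Cytosolic and mitochondrial enzymes for the same amino acid can be set against each other within each library, since both values come from the same RNA. In 10 of 18 such pairs the cytosolic minus mitochondrial difference was lower in every si-Rsl24d1 library at day 0 than in every si-CTL library, in 1 it was higher, and in 7 the groups overlapped. How often other gene pairs separate in this way was not computed, so the count is a description. The widest shifts in the difference were -1.25 for Nars and Nars2, -1.12 for Mars1 and Mars2, -1.05 for Sars and Sars2 and -0.96 for Yars and Yars2 on the log2 scale. The genes Eprs and Fars2 each stand in more than one pair, so the pairs are not independent.

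Averaged over the set, the cytosolic genes stood at 7.04 ± 0.057 log2(TPM + 1) in si-CTL cells (SD, n = 3) and at 6.51 ± 0.041 in si-Rsl24d1 cells, a step several times the spread between replicates. The 16 mitochondrial genes without Lars2 stood at 4.34 and 4.24. Summed as TPM, the cytosolic set came to 2866 ± 116 TPM in si-CTL cells and 1980 ± 59.0 TPM in si-Rsl24d1 cells, and the mitochondrial set without Lars2 to 405 ± 4.92 and 367 ± 4.21 TPM.

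**Figure D3:**
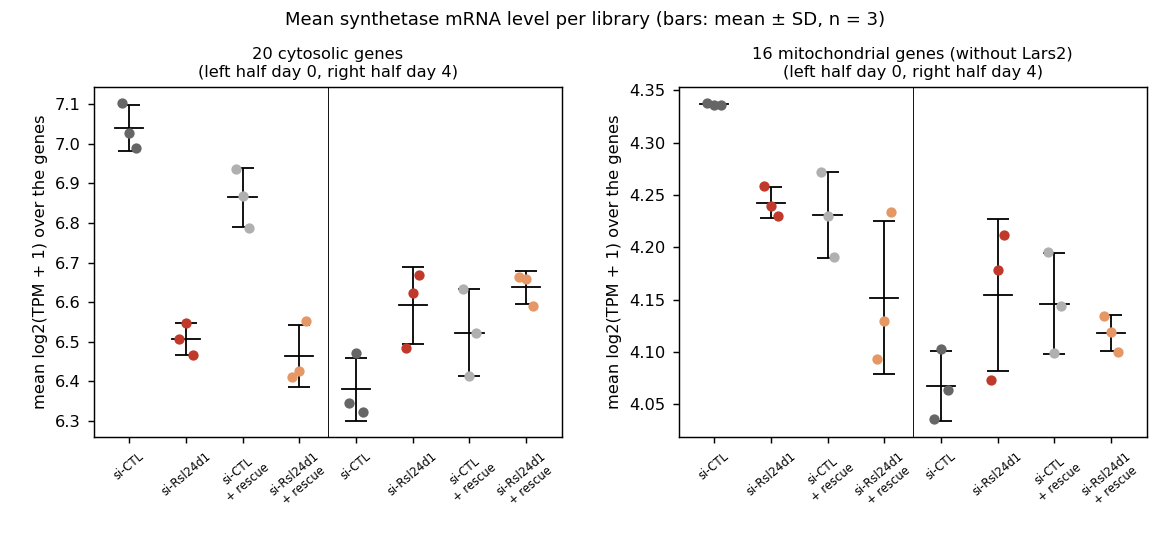
Mean log2(TPM + 1) over the 20 cytosolic genes (left) and the 16 mitochondrial genes without Lars2 (right) in each library (points), with the mean and SD of 3 libraries (bars), for the 8 groups. The vertical axes differ and do not start at 0. At day 0 the cytosolic mean is 7.04 with si-CTL, 6.86 with si-CTL and rescue, 6.51 with si-Rsl24d1 and 6.46 with si-Rsl24d1 and rescue.

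The second question was how far ectopic RSL24D1 returned these mRNAs to the control level. With rescue, si-Rsl24d1 against si-CTL cells at day 0 still gave 12 of 20 cytosolic members lower and 0 higher, where 5.64% of all genes were called lower. The median log2 fold change was -0.35. Sars (-0.89) and Nars (-0.89) passed 1.8-fold, which 0.188% of all genes did. Of the 16, Dars, Hars, Vars and Wars did not pass here. With median of ratios scaling Dars (-0.16), Hars (-0.15) and Wars (-0.18) passed as lower, which made 15 cytosolic members, and with protein-coding genes rescaled to a common sum Dars and Hars did. The call of Kars (-0.22) was lost without replicate 1 of either rescued group, and that of Farsb (-0.16) without si-CTL replicate 2 or si-Rsl24d1 replicate 1 or 2.

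Sars had 7.70, 7.71 and 7.62 log2(TPM + 1) in rescued si-CTL cells and 6.75, 6.78 and 6.81 in rescued si-Rsl24d1 cells. Nars had 7.81, 7.76 and 7.69 against 6.84, 6.87 and 6.87. Both genes stayed far apart between the siRNAs in the presence of RSL24D1. Mars1 had 6.72, 6.57 and 6.48 against 5.88, 5.81 and 6.08, also without overlap (-0.66 ± 0.10). Cars changed more with rescue (-0.68) than without (-0.51), and it was the 1 of the 16 whose change was not smaller. For the 16, the rescued change was a median of 75.5% of the unrescued one, from 25.8% for Vars to 132% for Cars, where the 16 had been chosen on the unrescued change. Over all 37 members the changes with and without rescue, which come from separate libraries, had a Pearson r of 0.92 across genes, given as a description because genes are not independent replicates. No member passed with rescue that had not passed without it.

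Of the mitochondrial members, 1 passed as lower and 1, Cars2 (0.25), as higher with rescue, where 8.1% of all genes were called higher. Ears2 (-0.25), Iars2 (-0.21), Aars2 (-0.16) and Tars2 (-0.06) did not pass, but with median of ratios scaling Ears2 (-0.27), Iars2 (-0.24) and Aars2 (-0.19) did, which made 4 mitochondrial members lower. Fitted on the 6 libraries compared alone, without the spread of the other groups, 9 cytosolic and 0 mitochondrial members passed, which is fewer than the 14 of the fit over all groups.

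Set directly against unrescued si-Rsl24d1 cells, rescue changed 0 of 20 cytosolic members (2 at an unadjusted p below 0.05, both lower, a p that 34.2% of all genes reached as lower), while Rsl24d1 itself rose by 1.55. The background at the adjusted threshold was 12.2% of all genes lower and 3.06% higher. Sars had a log2 difference of 0.14 (95% interval -0.01 to 0.30), Nars 0.07 (-0.09 to 0.24), Aars 0.04 (-0.15 to 0.22), Mars1 0.09 (-0.13 to 0.30) and Yars 0.03 (-0.13 to 0.19). These intervals leave out a return of the whole fall, but not a partial one. Cars2 alone passed among the mitochondrial members, with 5.33, 5.34 and 5.44 after rescue against 5.58, 5.56 and 5.60 (-0.21, adjusted p = 7.09e-04).

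The scale matters in this comparison, since the median gene stood 0.11 lower on the log2 scale with rescue. With median of ratios scaling, which sets that median to about 0, 5 members passed as higher, among them Farsa (0.16), Kars (0.22), Rars (0.14) and Tars2 (0.14), and Cars2 (-0.08) no longer passed. In si-CTL cells rescue changed 0 of 37 members by limma at the adjusted threshold. At an unadjusted p below 0.05 it changed 20, of which 14 were cytosolic, and all of them were lower. At that p 37.6% of all genes were lower, and the median of all genes moved by -0.12. The adjusted test called 2 of the 16447 genes (0.0122%). A test of whether the siRNA effect differed with and without rescue called 0 of 37 members, against 2.09% of all genes, and 4 at an unadjusted p below 0.05, against 17.6%. With median of ratios scaling Kars (0.23) passed. The change with rescue was thus smaller in 15 of 16 cytosolic members that fell, a set chosen on the unrescued change. For no single member did that difference pass on the deposited scale. The mean of the cytosolic set was 7.04 in si-CTL cells without rescue and 6.86 with it, and in si-Rsl24d1 cells 6.51 and 6.46. On this scale the smaller difference thus went with a lower level in si-CTL cells, not with a higher one in si-Rsl24d1 cells. The share of all genes with a smaller change was not computed.

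**Figure D4:**
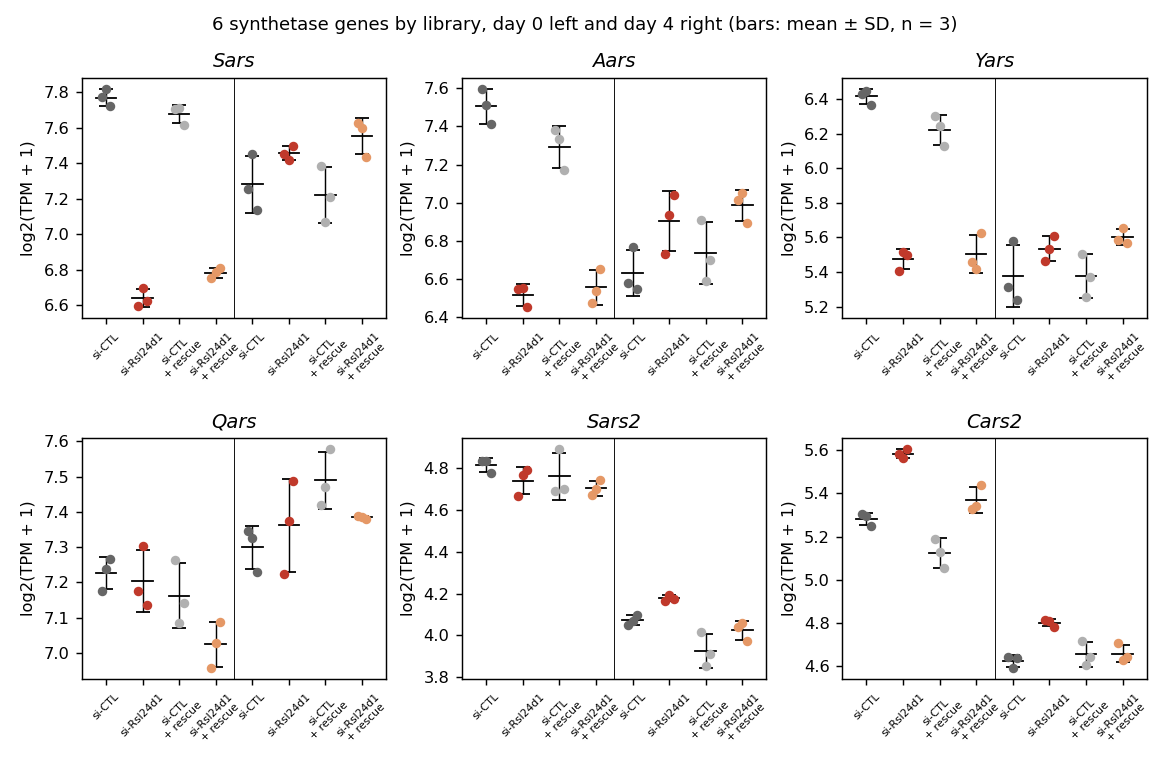
Log2(TPM + 1) of 6 synthetase genes in each of 24 libraries (points), with the mean and SD of 3 libraries (bars), for the 4 groups of day 0 (left of each line) and day 4 (right). The genes were picked after their values were seen. Sars, Aars and Yars stand lower in both si-Rsl24d1 groups at day 0, Qars overlaps between them, Sars2 differs by day and Cars2 is higher with si-Rsl24d1 at day 0.

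The third question concerned the RA medium. In si-CTL cells without rescue, 18 of 20 cytosolic members were lower at day 4 than at day 0 and 0 were higher, with 36.7% of all genes called lower and 24.1% higher. The median log2 fold change was -0.67 against -0.10 over all genes. Of these, 7 passed 1.8-fold, where 8.24% of all genes did so downwards, namely Vars (-1.20), Mars1 (-1.14), Yars (-1.04), Wars (-0.92), Iars (-0.92), Lars (-0.90) and Aars (-0.88). Vars, the valine enzyme, had 7.09, 6.94 and 6.88 log2(TPM + 1) at day 0 and 5.72, 5.78 and 5.82 at day 4, with no overlap. Dars (0.11) and Qars (0.07) did not pass, but both passed as higher with median of ratios scaling (0.25 and 0.21), which gave 18 cytosolic members lower and 2 higher, and 8 mitochondrial members lower and 3 higher.

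Of the mitochondrial members, 9 were lower and 1 was higher. The fallers were led by Aars2 (-0.80), Sars2 (-0.74), Mars2 (-0.71) and Cars2 (-0.66). Aars2 had 4.13, 4.07 and 4.16 log2(TPM + 1) at day 0 and 3.26, 3.31 and 3.41 at day 4. Vars2, the mitochondrial valine enzyme, rose from 4.05, 3.96 and 3.94 to 4.26, 4.48 and 4.46 (0.42, adjusted p = 0.0025), while its cytosolic counterpart fell most. The call of Vars2 was lost without si-CTL replicate 3 of day 0 or replicates 2 or 3 of day 4, with an adjusted p between 0.010 and 0.013.

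In si-Rsl24d1 cells, where many cytosolic members were already low at day 0, day 4 against day 0 gave 5 cytosolic members lower and 6 higher, and 6 mitochondrial members lower and 4 higher, beside 26.4% of all genes lower and 29.4% higher. Rsl24d1 itself rose by 1.39 on the log2 scale in this comparison. The RA medium and the return of the target mRNA therefore cannot be told apart in it. Sars rose by 0.82, from 6.60, 6.70 and 6.62 to 7.45, 7.42 and 7.50, and Dars (0.54), Nars (0.52), Aars (0.39), Gars (0.34) and Kars (0.26) rose too. Vars (-0.67) and Farsa (-0.62) fell, as they did in si-CTL cells, which share no library with this comparison. With rescue, si-CTL cells gave 14 cytosolic members lower and 2 higher (22.4% and 36.8% of all genes), and si-Rsl24d1 cells 5 lower and 11 higher (25.8% and 32.4%). Farsa, Hars, Rars, Vars and Wars were called lower at day 4 in all 4 of these comparisons. The calls of Rars were the less firm ones. In si-Rsl24d1 cells without rescue (-0.16) the call was lost without day 0 replicate 1 or 2 or day 4 replicate 1 (adjusted p from 0.016 to 0.026) and on only the groups compared (0.040), and in rescued si-CTL cells without day 0 replicate 1 (0.014) or day 4 replicate 2 (0.018).

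At day 4 itself the pattern of day 0 was absent. Without rescue, 0 of 20 cytosolic members were lower in si-Rsl24d1 than in si-CTL cells and 7 were higher (Lars, Iars, Dars, Kars, Rars, Wars and Farsb, from 0.13 to 0.44), with 6.04% of all genes lower and 24.9% higher and a median of 0.13 over all genes. Lars had 6.12, 6.22 and 6.13 in si-CTL cells and 6.51, 6.57 and 6.72 in si-Rsl24d1 cells. Of the mitochondrial members 2 were higher, Mars2 (0.23) and Cars2 (0.18).

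These day 4 calls moved with single libraries and with the scale. The 9 members became 5 without si-CTL replicate 1 or 3, 13 without si-CTL replicate 2, 15 without si-Rsl24d1 replicate 1, and 4 without si-Rsl24d1 replicate 2 or 3. The si-Rsl24d1 replicate 1 stood below its group, for instance with Eprs at 6.17 against 6.73 and 6.65, and with Vars at 5.68 against 6.10 and 6.09. With median of ratios scaling 3 members passed, Lars as higher and Farsa (-0.16) and Yars2 (-0.22) as lower. With rescue, Nars (0.35) and Sars (0.33) were higher and Iars2 (-0.28) lower, beside 2.33% and 3.53% of all genes, and 0 passed without any one of 4 of the 6 libraries (si-CTL replicates 2 and 3, si-Rsl24d1 replicates 1 and 2). There, median of ratios scaling gave 6 members higher and 1 lower, and protein-coding genes rescaled to a common sum, an alternative added after the data were seen, gave 3 higher and 0 lower.

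The effect of si-Rsl24d1 differed between the days in the test of that difference. The siRNA by day term passed for 18 of 20 cytosolic and 5 of 17 mitochondrial members, each of them on the deposited scale with a higher (less negative or positive) change at day 4, where 22.1% of all genes passed in that direction and 8.83% in the other. The cytosolic median was 0.73 on the log2 scale, against 0.14 over all genes. Nars (1.32), Sars (1.30) and Mars1 (1.29) had the largest terms, and 8 cytosolic members passed 1.8-fold (2.9% of all genes upwards). Farsa (0.07) and Qars (0.08) did not pass. The call of Ears2 (0.36) was lost without any one of 8 of the 12 libraries compared. With median of ratios scaling 2 mitochondrial members passed in the other direction, Cars2 (-0.27) and Nars2 (-0.52), while Hars (0.10) and Ears2 (0.21) did not pass, and Nars2 also passed as lower without day 4 si-CTL replicate 1 (-0.49).

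Genes that share a pathway with the synthetases were read from lists. Of 14 tested genes of ATF4 and the amino acid response outside the synthetases, 12 were lower in si-Rsl24d1 cells at day 0 and 0 were higher (16.1% and 14.3% of all genes), 7 of them past 1.8-fold, with a median log2 fold change of -0.92. Atf4 itself had 7.41, 7.47 and 7.44 log2(TPM + 1) in si-CTL cells and 6.64, 6.62 and 6.67 in si-Rsl24d1 cells (-0.80). Chac1, a glutathione-degrading enzyme induced by ATF4, went from 4.66, 4.64 and 4.66 to 1.79, 1.83 and 1.60 (-2.91), and Pck2, a mitochondrial enzyme of gluconeogenesis, fell by 1.70 on the log2 scale. Sesn2 (0.19) and Ddit3 (-0.11) did not pass.

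The same list gave 13 of 14 genes lower with rescue (5.64% of all genes), and 1 higher (Phgdh, of serine synthesis) and 1 lower (Sesn2) for rescue against none in si-Rsl24d1 cells (3.06% and 12.2%). By day 4, 11 were lower and 1 was higher in si-CTL cells (36.7% and 24.1%). The one that rose was Asns, asparagine synthetase, which makes the amino acid that Nars uses, with 7.65, 7.55 and 7.51 at day 0 and 8.50, 8.76 and 8.54 at day 4, whereas Nars fell from 7.92, 7.87 and 7.79 to 7.00, 7.27 and 6.92. At day 4, 0 were lower and 3 higher in si-Rsl24d1 cells without rescue, where 24.9% of all genes were higher, so the 3 of 14 are no more than the background. With rescue at day 4, 6 of 14 were higher and 0 lower, against 2.33% and 3.53% of all genes, with a median log2 fold change of 0.35. How these 6 calls depend on single libraries or on the scale was not tested. Without rescue, the siRNA by day term passed for 12 of 14, all upwards (22.1% of all genes).

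Partners of the synthetases gave calls in both directions, and their counts are read against 16.1% of all genes lower and 14.3% higher. Of the 3 scaffold proteins of the multisynthetase complex, Aimp1 was lower in si-Rsl24d1 cells at day 0 (-0.16) and Aimp2 (-0.03) and Eef1e1 (-0.13) did not pass. Of 6 synthetase-like and proofreading genes, Dtd1 (-0.41) and Dtd2 (-0.45), which remove D-amino acids and other wrong residues from tRNA, were lower, and Tarsl2 (0.48), a second cytosolic threonine enzyme, was higher, the opposite of Tars. Of the 4 genes that make mitochondrial glutaminyl-tRNA and formyl-methionyl-tRNA, Gatc (0.31) and Qrsl1 (0.30) were higher. There is no mitochondrial glutamine synthetase in the set, since this amidotransferase takes its place.

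Lars2, the mitochondrial leucine enzyme, stood apart from the other members in its spread. Its within-group SD was 0.68 on the log2 scale, against 0.039 to 0.17 for the other 36, and 97.9% of the genes tested had less. In si-CTL cells at day 0 it had 8.28, 7.70 and 6.67 log2(TPM + 1), in rescued si-CTL cells 7.89, 9.34 and 8.58, and at day 4 in the same cells 6.21, 6.19 and 5.82. The last 2 groups did not overlap, and Lars2 was called lower at day 4 there (-2.53, adjusted p = 2.08e-04), its only call in the 12 comparisons.

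The level of Lars2 moved with that of CT010467.1, annotated as a ribosomal RNA, and of Mir6236, annotated as a microRNA, both picked after their values were seen. In the 3 si-CTL libraries at day 0 Mir6236 had 12.5, 11.9 and 10.6, in the order of Lars2. The 3 libraries of a group had the same order for Lars2 and CT010467.1 in 7 of 8 groups, for Lars2 and Mir6236 in 6, and for Lars2 and mt-Rnr2, a mitochondrial ribosomal RNA, in 4. In rescued si-CTL cells Mir6236 went from 11.8, 13.6 and 12.7 at day 0 to 9.83, 10.1 and 9.37 at day 4, so it fell with Lars2, and the part of either RNA in the Lars2 call was not tested.

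**Figure D5:**
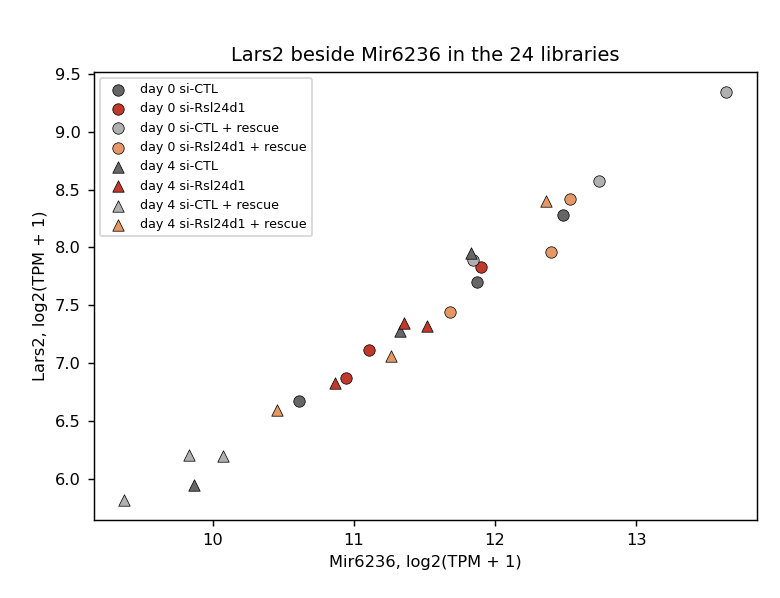
Lars2 (vertical axis) against Mir6236 (horizontal axis), both as log2(TPM + 1), in 24 libraries (circles day 0, triangles day 4, colour by siRNA and rescue). The libraries run from low in both, such as a day 4 si-CTL library with rescue at 5.82 and 9.37, to high in both, the day 0 si-CTL library with rescue at 9.34 and 13.6.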

How the data were processed

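The 24 libraries (3 per group) were deposited by the authors as log2(TPM + 1) values in 1 table of 54242 symbols. Per the labels, reads were processed with STAR 2.7.8a and Salmon 1.4.0 on GRCh38, from poly-A libraries, with 48 h in single descriptions and 72 h in the protocol, whereas the study's methods give stranded total RNA, 72 h, GRCm38 and other versions. The labels and the study also differ on the medium and on LIF in the RA medium. These conflicts were not settled. TPM sum to 1000000 in each library, so depth is unknown and no count model or counting interval applies. The precision rests on 3 libraries per group.

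The test was limma 3.58.1 under R 4.3.3 (8 group means, empirical Bayes with trend, two-sided, Benjamini-Hochberg over 16447 genes with a mean of at least 0.5). A member passed at an adjusted p below 0.01, and 1.8-fold (0.848 on the log2 scale) was counted beside it. Fold changes are on the log2(TPM + 1) scale, which understates changes of low genes. The fit was tested on simulated data. An exact permutation test of 3 against 3 libraries cannot go below p = 0.1, so none was used.

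Same-numbered libraries did not deviate together (mean residual correlation -0.017 over 84 pairs, 0.0087 over 168 others), and 0 pairs were identical. Members and lists were chosen with earlier results of these data known. Any member may be named, of each list at most 3 genes a direction in a comparison, and markers served as a check. Alternatives were 0.1 or 2 added to the TPM, no filter or a mean of 1.5, median of ratios scaling, only the groups compared, a replicate block, each library left out, and, added after the data were seen, protein-coding genes rescaled to a common sum. The values of 1 member and 1 promoter site are not reported here, but counts include them. Names matched RefSeq (GRCm38.p6) for all 37 members. Of 31-base words in gencode vM21 transcripts, Iars shared 14.5% with Gm4849 and Aars 13.8% with Exosc6, and the other 35 members at most 0.906% with any 1 gene, so these 2 values are less certain.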

Additional observations from a re-analysis of the deposited data

Results flagged for a closer look

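For 23 members the effect of si-Rsl24d1 without rescue differed between day 0 and day 4 in limma's test of that difference (adjusted p below 0.01). The values are log2 fold changes at day 4 minus those at day 0. In the cytosolic set they were 1.32 for Nars, 1.30 for Sars, 1.29 for Mars1, 1.26 for Aars, 1.17 for Lars, 1.15 for Iars, 1.10 for Yars, 0.89 for Gars, 0.82 for Tars, 0.79 for Eprs, 0.67 for Cars, 0.66 for Kars, 0.52 for Vars, 0.46 for Wars, 0.42 for Dars, 0.34 for Farsb, 0.32 for Rars and 0.25 for Hars. In the mitochondrial set they were, among others, 0.47 for Iars2, 0.42 for Aars2, 0.36 for Ears2 and 0.33 for Tars2. Rsl24d1 itself differed between the siRNAs by -1.95 at day 0 and by -0.04 at day 4, and its term was 1.91.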

How the results depend on the processing

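The counts of members past the test kept within 1.5 times the reported ones under most alternatives. Fitted on only the groups compared, si-Rsl24d1 against si-CTL gave 9 members at day 0 with rescue (14 reported), 2 at day 4 without rescue (9) and 1 at day 4 with rescue (3). With median of ratios scaling, rescue in si-Rsl24d1 cells gave 5 (1 reported), the siRNA at day 4 gave 3 without and 7 with rescue, and siRNA by rescue gave 1 (0 reported). With no filter the siRNA at day 4 with rescue gave 0. Farsa (-0.16) and Farsb (-0.036) reversed with median of ratios scaling for the siRNA at day 4 without rescue. That scaling moves the median of all genes to about 0, and for the other changes the cause was not tested.

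With each library left out once, there were 20 to 21 members for the siRNA at day 0 without rescue (22 reported), 12 to 16 with rescue, 1 to 2 for rescue in si-Rsl24d1 cells (2 without rescued si-Rsl24d1 replicate 3) and 0 to 0 in si-CTL cells. For day 4 against day 0 it gave 26 to 29 in si-CTL and 19 to 22 in si-Rsl24d1 cells, and with rescue 24 to 29 and 25 to 28. The siRNA at day 4 gave 4 to 15 without and 0 to 4 with rescue, siRNA by day 22 to 24, and siRNA by rescue 0 to 0.

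With a replicate block, 440 of 444 single results kept direction and side of the threshold. The counts were 21 and 14 members for the siRNA at day 0 without and with rescue and 9 at day 4 without rescue. Same-numbered libraries shared no deviation on average, which cannot tell whether they were prepared together. The depth of each library is not kept in TPM, so low members such as Wars2 carry an unknown counting error.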

Other observations

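Other parts of the translation machinery moved in both directions in si-Rsl24d1 cells at day 0. All genes tested were lower in 16.1% of cases and higher in 14.3%. Of 9 mitochondrial translation factors 3 were lower and 0 higher, led by the elongation factor Tufm (-0.40) and the ribosome recycling factor Gfm2 (-0.33). At day 4 in si-CTL cells 5 of the 9 were lower, against 36.7% of all genes, Tufm (-0.94) and Gfm2 (-0.86) past 1.8-fold. Of 5 cytosolic elongation factors, Eef1a1 (0.21) and Eef1b2 (0.19) were higher and Eef1d (-0.24) and Eef1g (-0.08) lower.

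Of 6 genes listed for the selenocysteine tRNA pathway, whose amino acid is built on a seryl-tRNA that Sars charges, 2 were lower. These were Sephs2 (-0.40), which makes the selenium donor, and Sephs1 (-0.37). Pstk (0.30), the kinase of that tRNA, was higher. At day 4 in si-CTL cells Sephs2 was lower by -1.22. Of the 4 genes listed with the amino acid sensing kinases, Eif2s1 (-0.23), an initiation factor subunit and not a sensor, was lower in si-Rsl24d1 cells at day 0. The sensor kinase Eif2ak4 had -0.29 there (adjusted p = 0.011).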
